A study of Mus musculus with 12 samples.

Results

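The genes described here are 10 interferon-induced genes that do not belong to the Ifit, Oas, Mx or Isg15 groups: Bst2, Rsad2, Samhd1, Trim30a, Rtp4, Ifi44, Ifi27l2a, Lgals9, Phf11d and Xaf1. They were chosen by name as single effectors with a strong rise when FGF2 was added to BMP4 in neural stem cells (NSCs), so the levels that chose them are given as a description, with no test. The deposited table held 17365 genes, all 10 members were found in it, and all 10 were among the 13641 genes with enough counts to be tested. NSCs isolated from the subventricular zone of mice 6 to 8 weeks old, and kept below passage 10, were cultured for 3 days in EGF with FGF2 (EGF/FGF, proliferating cells), in BMP4 alone (BMP, dormant quiescent cells, d-qNSCs) or in BMP4 with FGF2 (BMP/FGF, primed quiescent cells, p-qNSCs), each factor at 10 ng/ml. Every condition had 4 libraries of bulk RNA, with 2 of the line ANS4 (strain MF1) and 2 of the line BL6 (strain C57BL/6), in total 12. Each strain is represented by 1 line, so line and strain cannot be told apart, and all cultures shared a serum-free basal medium with N2, B27 and laminin. The replicates were named biological, but no label tied them to separate animals or derivations, so the p-values measure the spread between these libraries.

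Interferons are secreted proteins through which cells warn each other of infection. Type I interferon binds the Ifnar receptor and activates the kinases Jak1 and Tyk2, and the signal ends in a complex with Irf9 that binds the interferon-stimulated response element (ISRE) in promoters, whereas interferon gamma acts through the gamma-activated site (GAS). The genes turned on in this way encode proteins that block viral entry, replication and release or adjust the signal itself, and stem cells are known to keep some of them on without infection.

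The promoters show where the members carry these elements, and the stretches around the ISRE matches upstream of the start are shown for the 4 members that have one. RefSeq promoters on GRCm38.p6 were examined from 250 bases before to 50 bases after the start of the transcript, the start counted as 0, and 8 of the 10 members had a window. The searched ISRE core was GAAANNGAAA and the searched GAS was TTCNNNGAA, each on both strands and each allowed to overlap. The sequences run 5′ to 3′ along the strand of the gene, and capitals mark the ISRE core match, which is read on the opposite strand in all but Bst2.
Bst2, chr8:71537562-71537627, minus strand, from -155 to -90: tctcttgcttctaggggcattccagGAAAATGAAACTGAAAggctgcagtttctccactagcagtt
Rsad2, chr12:26456538-26456597, minus strand, from -145 to -86: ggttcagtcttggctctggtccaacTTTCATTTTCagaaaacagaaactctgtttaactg
Lgals9, chr11:78984945-78985004, minus strand, from -80 to -21: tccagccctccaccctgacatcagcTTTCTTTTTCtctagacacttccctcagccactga
Trim30a, chr7:104465195-104465254, minus strand, from -61 to -2: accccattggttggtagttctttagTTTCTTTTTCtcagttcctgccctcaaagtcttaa

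The capitals in Bst2 hold 2 overlapping matches, at -130 to -121 and at -124 to -115, and a GAS match at -136 to -128 runs into the first of them. Rsad2 had 1 match at -120 to -111, Lgals9 had one at -55 to -46 and another at 15 to 24, and Trim30a had one at -36 to -27 and another at 2 to 11 in its second RefSeq window. Samhd1 had a GAS match at -235 to -227 and no ISRE core in its window. In the windows of Ifi44, Phf11d and Xaf1 these letters were not found, and Ifi27l2a and Rtp4 had no window. Among all 27025 genes with a window, 3.99% held the ISRE core and 9.55% held the GAS. A match is a description of the letters and was not tested as a binding site.

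The 12 libraries held 18069052 to 19451818 estimated counts, and levels are given as CPM, counts scaled to a common library size, after TMM scaling. Replicates of a line and condition differed beyond counting noise, and most in BL6 BMP. The chi-square per degree of freedom was 12.1 in BL6 BMP and 2.12 to 4.66 in the other groups. The 10 neural stem cell markers (Sox2, Nes, Fabp7, Gfap and others) were all detected but did not move together. In BMP against EGF/FGF 7 rose and 3 fell (edgeR, adjusted p under 0.05), beside 40.2% of all tested genes called higher and 38.8% lower. Fabp7 fell from 2420 ± 176 to 476 ± 173 CPM and Gfap rose from 121 ± 28.9 to 979 ± 91.7 CPM (SD, n = 4). The 10 summed to 7600 to 8270 CPM (EGF/FGF), 10300 to 11600 CPM (BMP) and 13400 to 13900 CPM (BMP/FGF). Of 12 microglia and macrophage markers 8 were in the table, with sums of 63.7 to 77.1, 70.0 to 78.8 and 94.2 to 103 CPM in the same order. Of these 8, Csf1r, Tmem119 and Cx3cr1 had at most 2, 4 and 10 counts in a library and were not tested. Csf1r was at 0 in all BMP libraries but not in all of EGF/FGF or BMP/FGF. P2ry12, which like them marks microglia closely, was tested and averaged 1.38 ± 0.44 (EGF/FGF), 2.15 ± 0.32 (BMP) and 2.4 ± 0.97 CPM (BMP/FGF). P2ry12 did not pass from BMP to BMP/FGF (log2 0.15, edgeR adjusted p = 0.682) and was higher in BMP/FGF than in EGF/FGF (log2 0.78, adjusted p = 0.019). Of the 5 tested, 4 rose from BMP to BMP/FGF and 0 fell (edgeR, adjusted p under 0.05), beside 19.2% of all tested genes called higher and 21.5% lower. Among the 4 were Cd14 (from 10.2 ± 1.63 to 15.9 ± 1.81 CPM), Itgam (from 3.36 ± 0.39 to 5.41 ± 0.49) and Cd68 (from 1.15 ± 0.62 to 2.42 ± 0.46 CPM, SD, n = 4), all named after their values were seen. Markers of T, B and dendritic cells (6 of 11 in the table) summed to 0.611 to 1.19 CPM over all libraries, and endothelial and pericyte markers (8 of 10) to 3.34 to 7.93 CPM. Ependymal markers (5 of 6) summed to 63.6 to 84.7 CPM (EGF/FGF), 229 to 282 CPM (BMP) and 220 to 227 CPM (BMP/FGF). The part of these markers in the results was not tested, and in bulk RNA a smaller number of expressing cells cannot be told apart from less RNA per cell. The line labels could be checked only in part, because no gene specific to either strain was used, and the counts below do not establish that they are right. Between the libraries labelled BL6 and ANS4, 887 genes differed in EGF/FGF, 3116 in BMP and 98 in BMP/FGF, and 4 (Met, Map1b, Crim1 and Ahnak) differed the same way in all 3 conditions. The order of these counts depended on the spread shared over all 12 libraries: with only the 4 libraries of a condition fitted, they were 1321, 1074 and 1115, and 20 genes differed the same way in all 3. With 1 library left out, the count was 195 to 1810 in EGF/FGF (195 without ANS4 replicate 2 and 1810 without BL6 replicate 2 of BMP), 1836 to 3598 in BMP (1836 without ANS4 replicate 2 of BMP and 3598 without BL6 replicate 1 of BMP) and 10 to 482 in BMP/FGF (10 without ANS4 replicate 2 of BMP/FGF and 482 without either BL6 replicate of BMP), and 2 to 31 genes differed the same way in all 3. If a label were wrong, every difference between BL6 and ANS4 given here would mean something else. A difference of at least 1 log2 unit the same way in all 3 was held by 3 genes (Gng3, Rit2 and Pcdha2), and 1 gene (Eif4ebp3) had 0 counts in all libraries of one line and at least 30 in the other. These 8 genes were picked out after their values were seen.

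**Figure D1:**
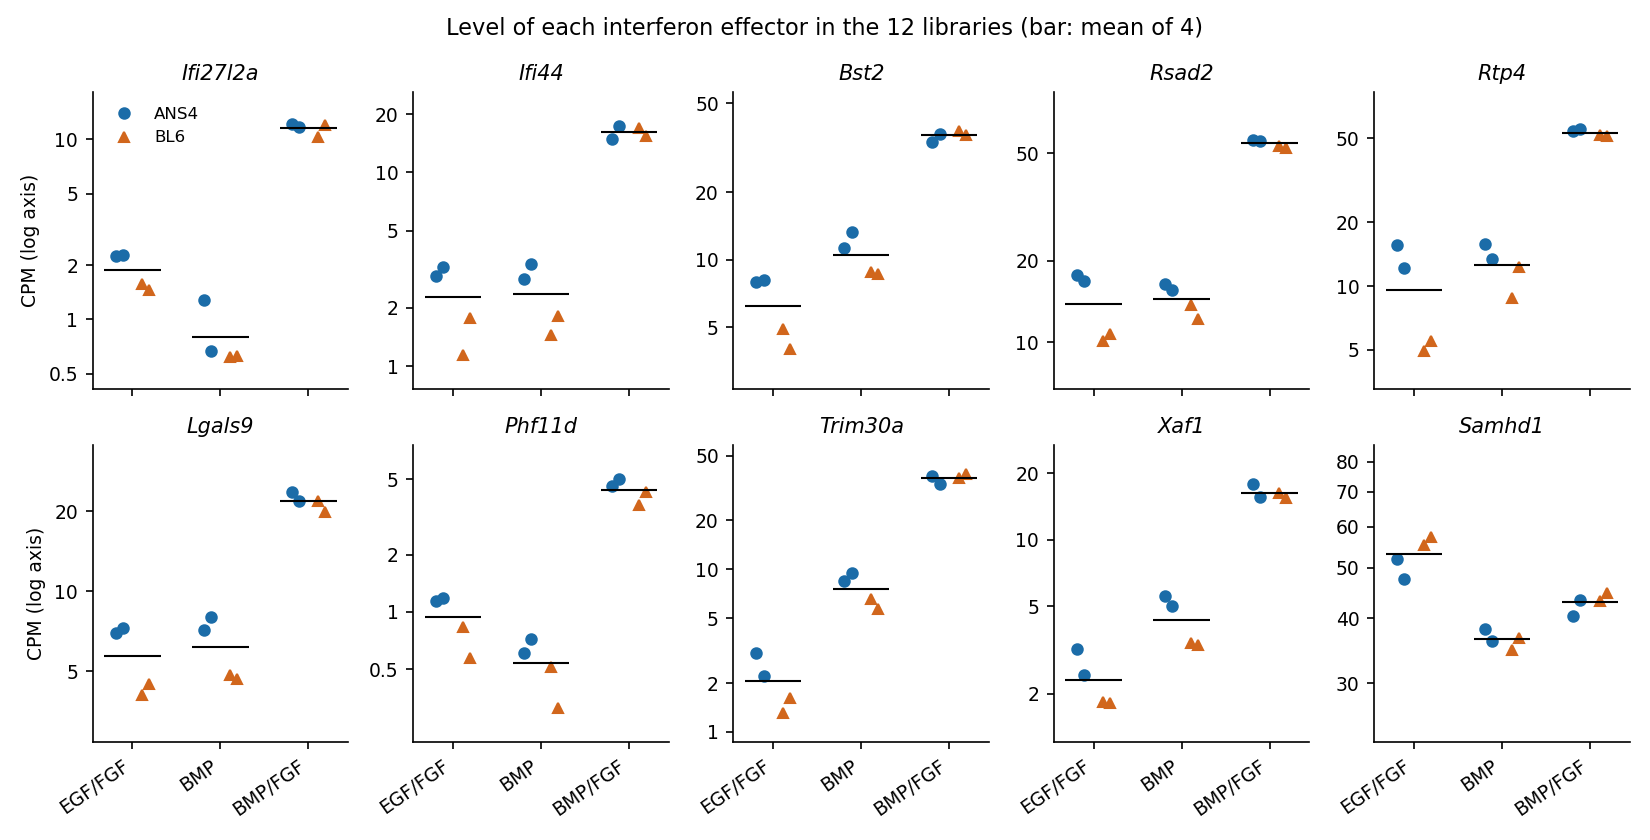
Level of each of the 10 genes in CPM on a log axis, by condition, with 1 point for each of the 12 libraries (circles ANS4, triangles BL6) and a bar at the mean of 4. In 9 panels the BMP/FGF points stand above all others, whereas Samhd1 is highest in EGF/FGF.

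With FGF2 added to BMP, 9 of the 10 effectors stood 3.47-fold to 14.6-fold higher than in BMP alone and Samhd1 stood 1.18-fold higher. In 10 of 10 the BMP/FGF libraries lay above the BMP libraries without overlap, beside 16.7% of all tested genes separated in this direction. Of all tested genes, 19.2% were called higher and 21.5% lower in this comparison at an adjusted p (FDR, edgeR quasi-likelihood test with Benjamini-Hochberg adjustment over all tested genes) under 0.05. Nothing is read from that count, since the rise chose the genes. The median of the fitted log2 differences was 2.03, against -0.01 over all tested genes. The rule set no threshold. The smallest rise among the strong 9 was that of Bst2 at 1.79 on the log2 scale, and Samhd1 followed at 0.24.

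Among the restriction factors, Bst2 (tetherin, chromosome 8, 71534255 to 71537456, minus strand on GRCm38) encodes a membrane protein that holds budding virus particles at the cell surface. Its level was 7.98 and 8.13 CPM in the ANS4 and 4.91 and 4.0 CPM in the BL6 libraries of EGF/FGF. The BMP libraries were at 11.3 and 13.4 CPM in ANS4 and 8.86 and 8.61 in BL6. Those of BMP/FGF were at 33.7 and 36.5 CPM in ANS4 and 37.4 and 36.1 in BL6. The 3 conditions thus formed 3 steps with no overlap, and the lines stood apart in EGF/FGF and BMP but overlapped in BMP/FGF. The means were 6.25 ± 2.11, 10.5 ± 2.25 and 35.9 ± 1.59 CPM (SD, n = 4 each).

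Rsad2 (viperin, chromosome 12, 26442746 to 26456452, minus strand), an enzyme that makes a nucleotide which stops viral RNA chains, was at 17.7 and 16.8 CPM in ANS4 and 10.1 and 10.7 CPM in BL6 in EGF/FGF. Its BMP level was 16.4 and 15.6 CPM in ANS4 and 13.8 and 12.2 in BL6. Its BMP/FGF level was 56.3 and 55.8 CPM in ANS4 and 53.5 and 52.4 in BL6. The EGF/FGF and BMP libraries overlapped, and the means were 13.8 ± 3.97, 14.5 ± 1.90 and 54.5 ± 1.83 CPM (SD, n = 4). Rsad2 rose 3.79-fold from BMP to BMP/FGF on the fitted scale (log2 1.92, SE 0.10), and in all 3 conditions both BL6 libraries lay below both ANS4 libraries.

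Trim30a (chromosome 7, 104409025 to 104465193, minus strand) encodes an E3 ligase of the TRIM family known for dampening signalling by Toll-like receptors. Its level in EGF/FGF was 3.08 and 2.23 CPM in ANS4 and 1.31 and 1.61 CPM in BL6. BMP gave 8.49 and 9.49 CPM in ANS4 and 6.60 and 5.70 in BL6. BMP/FGF gave 37.5 and 33.6 CPM in ANS4 and 36.6 and 38.7 in BL6. No other member climbed as far over the 3 conditions, with means of 2.06 ± 0.78, 7.57 ± 1.73 and 36.6 ± 2.18 CPM (SD, n = 4) and BMP/FGF 18.0-fold above EGF/FGF.

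Samhd1 (chromosome 2, 157097533 to 157135265, minus strand), the dNTP hydrolase that starves viral reverse transcription and restrains the nucleotide pool of resting cells, did not share this pattern. In EGF/FGF it stood at 52.0 and 47.6 CPM in ANS4 and 55.3 and 57.4 CPM in BL6. The BMP libraries held 38.2 and 36.1 CPM in ANS4 and 34.7 and 36.7 in BL6. Those of BMP/FGF held 40.5 and 43.4 CPM in ANS4 and 43.2 and 44.7 in BL6. The conditions did not overlap, and the order was EGF/FGF (53.1 ± 4.28), BMP/FGF (43.0 ± 1.77) and BMP (36.4 ± 1.44 CPM, SD, n = 4). Samhd1 was thus the only one of the 10 with BMP/FGF below EGF/FGF, by a fitted log2 difference of -0.30 (SE 0.07).

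Rtp4 (chromosome 16, 23520291 to 23614222, plus strand) encodes a zinc-finger protein of the receptor transporter family. It was at 15.7 and 12.2 CPM in the ANS4 and 4.91 and 5.51 CPM in the BL6 libraries of EGF/FGF. In BMP it was at 15.8 and 13.4 CPM in ANS4 and 8.76 and 12.3 in BL6. In BMP/FGF it was at 54.1 and 55.2 CPM in ANS4 and 51.9 and 51.6 in BL6. EGF/FGF and BMP overlapped, with means of 9.57 ± 5.24, 12.6 ± 2.93 and 53.2 ± 1.75 CPM (SD, n = 4), and in EGF/FGF both ANS4 libraries lay above both BL6 libraries. The annotated gene overlaps exons of the transcript Gm45338 on the same strand, so its reads are uncertain where both share sequence.

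Ifi44 (chromosome 3, 151730922 to 151749960, minus strand), a GTP-binding-like protein described as slowing proliferation, was low outside BMP/FGF. The EGF/FGF libraries held 2.92 and 3.26 CPM in ANS4 and 1.15 and 1.77 CPM in BL6. The BMP libraries held 2.83 and 3.39 CPM in ANS4 and 1.44 and 1.81 in BL6. The BMP/FGF libraries held 14.9 and 17.4 CPM in ANS4 and 16.9 and 15.5 in BL6. EGF/FGF and BMP overlapped within each line, both BL6 libraries lay below both ANS4 libraries in these 2 conditions, and in BMP/FGF the lines overlapped (means 2.27 ± 0.99, 2.37 ± 0.90 and 16.2 ± 1.16 CPM, SD, n = 4).

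Ifi27l2a (chromosome 12, 103442167 to 103443680, minus strand), a small hydrophobic protein of the ISG12 family, had the steepest difference between BMP and BMP/FGF. Its level in EGF/FGF was 2.24 and 2.28 CPM in ANS4 and 1.57 and 1.46 CPM in BL6. In BMP it was 1.28 and 0.67 CPM in ANS4 and 0.62 and 0.62 in BL6. In BMP/FGF it was 12.2 and 11.7 CPM in ANS4 and 10.4 and 12 in BL6. All BMP libraries lay below all EGF/FGF libraries, and 1 ANS4 library of BMP stood apart from the other 3. The means were 1.89 ± 0.44, 0.80 ± 0.32 and 11.6 ± 0.84 CPM (SD, n = 4), and the fitted rise from BMP to BMP/FGF was 14.6-fold (log2 3.87, SE 0.18).

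Phf11d (chromosome 14, 59347407 to 59365470, minus strand), a PHD-finger protein, was the lowest of the set, with as few as 6 counts in 1 library. It held 1.15 and 1.19 CPM in ANS4 and 0.84 and 0.57 CPM in BL6 in EGF/FGF. In BMP it held 0.61 and 0.72 CPM in ANS4 and 0.52 and 0.31 in BL6. In BMP/FGF it held 4.62 and 5.03 CPM in ANS4 and 3.66 and 4.29 in BL6. The EGF/FGF and BMP ranges overlapped over both lines but not within either line, and the means were 0.94 ± 0.29, 0.54 ± 0.17 and 4.40 ± 0.58 CPM (SD, n = 4). Phf11d, Trim30a and Ifi27l2a have close relatives in the genome, and how the quantification divided reads between such copies is uncertain.

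Lgals9 (galectin-9, chromosome 11, 78962974 to 78984946, minus strand), a secreted sugar-binding protein that engages Havcr2 and Cd44 on immune cells, was at 6.94 and 7.30 CPM in ANS4 and 4.08 and 4.47 CPM in BL6 in EGF/FGF. Its level in BMP was 7.16 and 7.99 CPM in ANS4 and 4.84 and 4.67 in BL6. Its level in BMP/FGF was 23.6 and 21.9 CPM in ANS4 and 21.9 and 19.9 in BL6. The step between BMP (6.17 ± 1.67) and BMP/FGF (21.8 ± 1.52 CPM, SD, n = 4) was 3.61-fold, whereas EGF/FGF (5.69 ± 1.66) overlapped BMP.

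Xaf1 (chromosome 11, 72301629 to 72313733, plus strand), which binds the caspase inhibitor Xiap and favours apoptosis, was at 3.18 and 2.43 CPM in ANS4 and 1.83 and 1.82 CPM in BL6 in EGF/FGF. Values in BMP were 5.55 and 5.00 CPM in ANS4 and 3.40 and 3.32 in BL6. Values in BMP/FGF were 17.9 and 15.6 CPM in ANS4 and 16.3 and 15.6 in BL6. Like Bst2 and Trim30a it formed 3 steps without overlap, at 2.32 ± 0.65, 4.32 ± 1.13 and 16.4 ± 1.11 CPM (SD, n = 4).

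**Figure D2:**
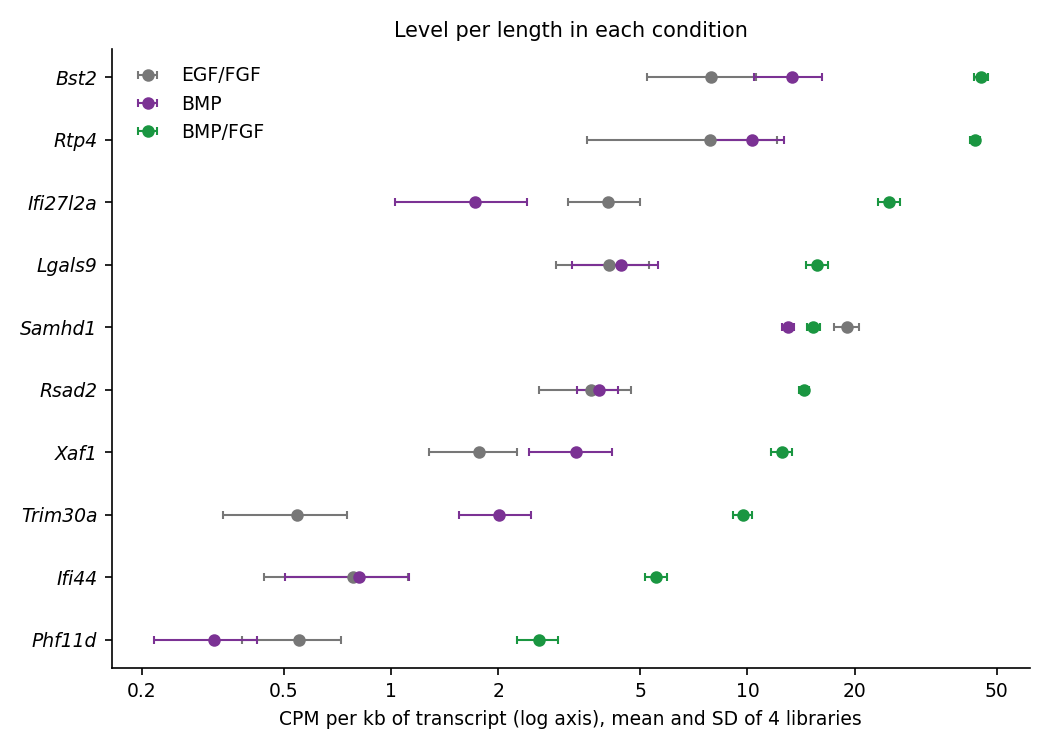
Mean level of each gene per kb of transcript (CPM per kb, log axis) with the SD of 4 libraries, in grey for EGF/FGF, purple for BMP and green for BMP/FGF. Samhd1 leads in EGF/FGF at 19 CPM per kb and stands in BMP/FGF at 15.3, behind Bst2 at 45.3, Rtp4 at 43.6, Ifi27l2a at 25.0 and Lgals9 at 15.7.

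To compare genes with each other, levels were divided by the mean length of the coding transcripts of each gene in GENCODE. In EGF/FGF Samhd1 led at 19 ± 1.53 CPM per kb, apart from Bst2 (7.90 ± 2.66) and Rtp4 (7.84 ± 4.30), which overlapped. Rtp4 also overlapped Lgals9 (4.09), Lgals9, Ifi27l2a (4.07) and Rsad2 (3.65 CPM per kb) overlapped as neighbours, Xaf1 stood alone at 1.77, and the same overlap was seen for Ifi44 (0.78), Phf11d (0.55) and Trim30a (0.55 CPM per kb) at the bottom. In BMP Bst2 (13.3 ± 2.85), Samhd1 (13.0 ± 0.52) and Rtp4 (10.3 ± 2.40 CPM per kb) overlapped as neighbours at the top, and Lgals9 (4.42), Rsad2 (3.83) and Xaf1 (3.30 CPM per kb) did so behind them. Trim30a (2.01) overlapped Ifi27l2a (1.72), and Ifi44 (0.81) and Phf11d (0.32 CPM per kb) followed in BMP without overlap. In BMP/FGF Bst2 (45.3 ± 2.00) and Rtp4 (43.6 ± 1.44 CPM per kb) overlapped at the top, Ifi27l2a had moved from eighth in BMP to the third place at 25.0 ± 1.81, and Lgals9 (15.7), Samhd1 (15.3) and Rsad2 (14.4 CPM per kb) overlapped as neighbours behind it. Xaf1 (12.5), Trim30a (9.71), Ifi44 (5.55) and Phf11d (2.60 CPM per kb) followed, each apart from its neighbours.

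Compared with EGF/FGF, 9 members were higher in BMP/FGF and Samhd1 was lower, in each case with no overlap of the 4 and 4 libraries, beside 38.1% of all tested genes lying above and 36.9% below without overlap. By the test, 40.0% of all tested genes were called higher and 38.1% lower. The median log2 difference was 2.55 (0.01 over all tested genes), and the range ran from -0.30 (Samhd1) and 1.97 (Lgals9) to 4.17 (Trim30a). This comparison contains the difference that chose the genes and is also a description.

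Whether quiescence in BMP alone changed the members was tested against EGF/FGF, a contrast that the choice did not use but whose BMP libraries it did. The members split: 3 rose, 3 fell and 4 did not pass the test (edgeR, FDR under 0.05), beside 40.2% of all tested genes called higher and 38.8% called lower. The members' share was near this background in both directions and is not a result about them. Trim30a rose 3.67-fold (log2 1.87, SE 0.18, adjusted p = 3.48e-08), Xaf1 1.85-fold (log2 0.89, SE 0.16, adjusted p = 6.33e-05) and Bst2 1.69-fold (log2 0.76, SE 0.15, adjusted p = 0.000202). Ifi27l2a fell to 42.3% (log2 -1.24, SE 0.22, adjusted p = 6.03e-05), Samhd1 to 68.7% (log2 -0.54, SE 0.07, adjusted p = 7.33e-07) and Phf11d to 57.9% of its EGF/FGF level (log2 -0.79, SE 0.26, adjusted p = 0.0113). For Phf11d the call was lost with the BL6 libraries alone (adjusted p = 0.149).

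The 4 members that did not pass had fitted log2 differences of 0.05 for Ifi44 (95% interval -0.41 to 0.52), 0.08 for Rsad2 (-0.13 to 0.30), 0.11 for Lgals9 (-0.15 to 0.38) and 0.44 for Rtp4 (0.04 to 0.84, adjusted p = 0.0552). Rtp4 passed under 7 of 23 other settings, and its value moved from 0.07 with the ANS4 libraries alone to 1.01 with the BL6 libraries alone. An exact two-sided permutation test over 4 and 4 libraries gave p = 0.0286, the smallest it can give, for Trim30a, Xaf1, Bst2, Ifi27l2a and Samhd1, and p = 0.0857 for Phf11d. For the other four the exact permutation p was 0.257 (Rtp4), 0.543 (Lgals9), 0.686 (Rsad2) and 0.8 (Ifi44). The median over the 10 was 0.10 on the log2 scale, against 0.02 over all tested genes. Within the lines, the 6 called members had the same sign in both, with log2 differences in ANS4 and BL6 of 1.76 and 2.07 (Trim30a), 0.91 and 0.88 (Xaf1), 0.62 and 0.97 (Bst2), -1.21 and -1.28 (Ifi27l2a), -0.81 and -0.76 (Phf11d) and -0.42 and -0.66 (Samhd1). The calls came from a fit over both lines, which favours the same sign, so nothing is read from the shared sign. Rsad2 had opposite signs, -0.11 in ANS4 (adjusted p = 0.325) and 0.32 in BL6 (adjusted p = 0.00951), and the difference between these did not pass (interaction adjusted p = 0.0687).

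**Figure D3:**
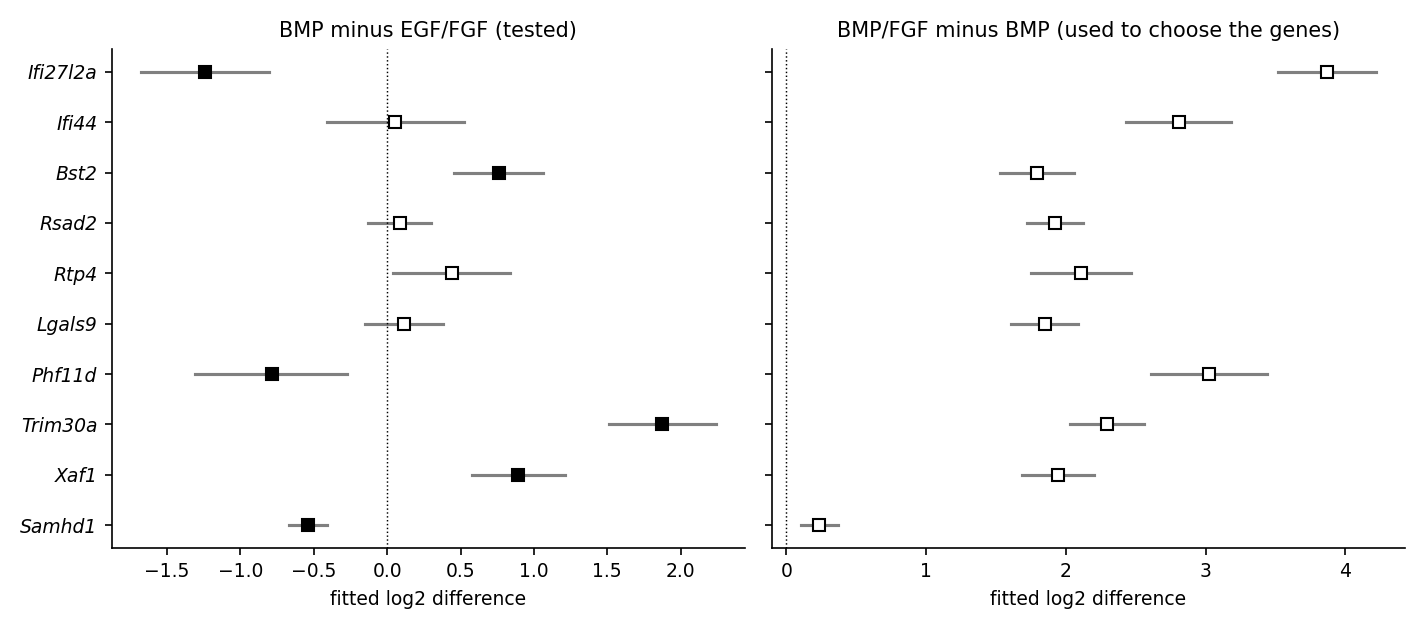
Fitted log2 differences with 95% intervals for each gene, on the left BMP minus EGF/FGF (filled squares pass FDR 0.05) and on the right BMP/FGF minus BMP, which chose the genes and has no test. On the left 3 genes are filled to the right of 0 and 3 to the left, and on the right Samhd1 at 0.24 stands apart from the other 9.

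The difference between the libraries labelled BL6 and ANS4 was not used by the choice, and in proliferating cells it had 1 direction for the members called. In EGF/FGF 6 of the 10 were lower in BL6 (edgeR, FDR under 0.05), where 3.70% of all tested genes were called lower. Rtp4 was at 37.4% of its ANS4 level (log2 -1.42, SE 0.17, adjusted p = 7.03e-05), Ifi44 at 47.3% (adjusted p = 0.012), Trim30a at 55.2% (adjusted p = 0.0382), Bst2 at 55.4% (adjusted p = 0.00181), Lgals9 at 60.1% (adjusted p = 0.00448) and Rsad2 at 60.4% (adjusted p = 0.000331). Ifi27l2a (log2 -0.58, adjusted p = 0.174), Xaf1 (-0.62, adjusted p = 0.0888) and Phf11d (-0.73, adjusted p = 0.213) did not pass, although both BL6 libraries lay below both ANS4 libraries in each, as they did in 9 of the 10 members and in 26.6% of all tested genes. Samhd1 stood the other way in its 2 and 2 libraries (log2 0.18, adjusted p = 0.171). Rtp4, Bst2 and Rsad2 held their calls under all 19 other settings. The count dropped to 3 without ANS4 replicate 2 or without BL6 replicate 1 of EGF/FGF. With 2 libraries against 2, an exact permutation test cannot give a p below 0.333.

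Markers moved with these libraries as well. In EGF/FGF, neural stem cell markers summed to 8210 to 8270 CPM in ANS4 and 7600 to 7710 in BL6, microglia and macrophage markers to 76.8 to 77.1 and 63.7 to 68.8, and ependymal markers to 76.0 to 84.7 and 63.6 to 66.1 CPM. Endothelial and pericyte markers summed to 3.93 to 5.06 CPM in ANS4 and 3.34 to 4.57 in BL6, and markers of T, B and dendritic cells to 0.626 to 0.880 and 0.993 to 1.19 CPM. Their part in the line difference was not tested.

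The same comparison within the other conditions was added after the levels were seen. In BMP, 7 members were lower in BL6, where 11.6% of all tested genes were called lower, and both BL6 libraries lay below both ANS4 libraries in 9 of 10 members and in 29.1% of all tested genes. Ifi44 was at 52.5% of its ANS4 level (adjusted p = 0.00851), Lgals9 at 62.8% (adjusted p = 0.00201), Xaf1 at 63.8% (adjusted p = 0.00979), Trim30a at 68.4% (adjusted p = 0.0108), Bst2 at 70.8% (adjusted p = 0.00654), Rtp4 at 72.1% (adjusted p = 0.0292) and Rsad2 at 81.0% (adjusted p = 0.0336). Ifi27l2a (log2 -0.64, adjusted p = 0.223), Phf11d (-0.68, adjusted p = 0.283) and Samhd1 (-0.06, adjusted p = 0.644) did not pass. The count was 1 with only the 4 BMP libraries fitted, 3 without ANS4 replicate 2 and 4 without ANS4 replicate 1 of BMP. Scaled by library size only, all tested genes called in BMP moved from 1530 higher and 1586 lower to 2094 and 1039, and 5 members were called. Marker sums of the BMP libraries stood apart in the same direction: neural stem cell markers were at 11600 CPM in both ANS4 libraries and 10300 to 10900 in BL6, microglia and macrophage markers at 75.7 to 78.8 and 70.0 to 72.0, and endothelial and pericyte markers at 7.77 to 7.93 and 4.67 to 5.92 CPM. Ependymal markers (262 to 282 and 229 to 271) and markers of T, B and dendritic cells (0.777 and 0.721 to 0.881 CPM) overlapped, and the part of any of these in the line difference was not tested.

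In BMP/FGF, 0 of the 10 members differed between the lines by edgeR, and DESeq2 also called 0. By edgeR 0 members had an unadjusted p under 0.05, beside 1709 of the 13641 tested genes. Calls were rare over all tested genes too, so nothing is read from these counts of 0. In BL6 0.550% of all tested genes were called higher and 0.169% lower, 98 genes in all. That background depended on the fit, with 1115 genes (8.51%) called when only the 4 BMP/FGF libraries were fitted, 225 with DESeq2 and 482 without either BL6 replicate of BMP, and 0 members were called in any of these. The fitted log2 differences ran from -0.28 for Phf11d (95% interval -0.66 to 0.10) to 0.08 for Trim30a (-0.12 to 0.28). That of Rtp4 was -0.08 (-0.30 to 0.14), compared with an interval of -1.74 to -1.09 in EGF/FGF. The libraries of the lines overlapped for 7 members, and for Rsad2, Rtp4 and Phf11d both BL6 libraries lay below both ANS4 libraries, as they did in 24.0% of all tested genes.

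**Figure D4:**
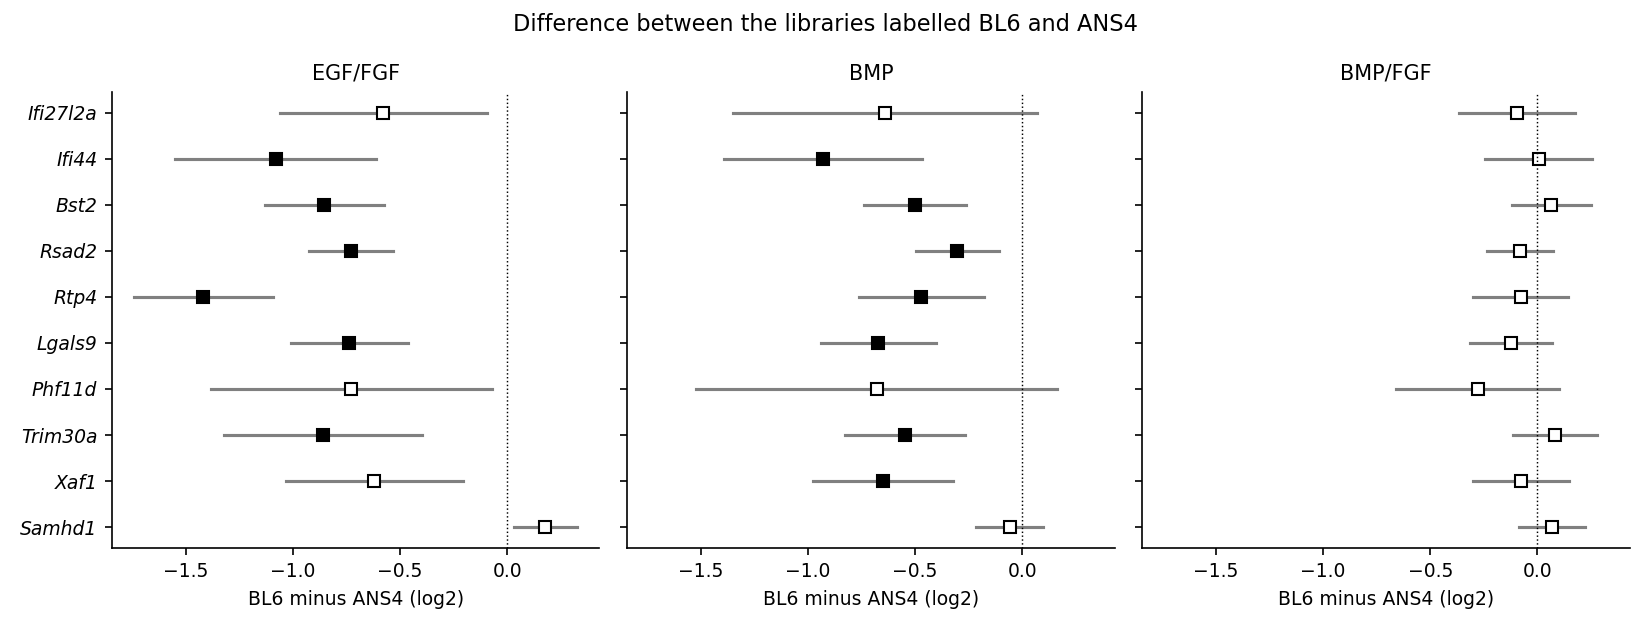
Fitted log2 difference of the BL6 from the ANS4 libraries in each condition, with 95% intervals (filled squares pass FDR 0.05, 2 libraries against 2). In EGF/FGF 6 and in BMP 7 genes are filled and left of 0, and in BMP/FGF none is.

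Whether the effect of the culture conditions differed between the lines was tested with an interaction (the log2 difference in BL6 minus that in ANS4). The step from BMP to BMP/FGF also chose the members for a strong rise, which the other tested genes were not chosen for. The share over all tested genes is thus not a like comparison in this step, and nothing is read from the count. The rise was larger in BL6 for 4 members, where 7.24% of all tested genes were called higher. These were Ifi44 (log2 0.94, SE 0.27, adjusted p = 0.0277), Trim30a (0.63, SE 0.17, adjusted p = 0.0244), Bst2 (0.56, SE 0.15, adjusted p = 0.0213) and Lgals9 (0.55, SE 0.17, adjusted p = 0.0393). In Ifi44 the fitted rise was 9.90-fold in BL6 and 5.18-fold in ANS4, and over the 10 members the median was 2.27 in BL6 and 1.85 in ANS4 on the log2 scale. These 4 calls were fragile: the count was 0 with DESeq2, 0 with limma on the rlog values, and 0 without ANS4 replicate 2 of BMP or without either BL6 replicate of BMP/FGF. It was 1 or 2 without ANS4 replicate 1 or 2 of BMP/FGF, and 2 without BL6 replicate 1 of BMP. The other 6 members had values of 0.13 (Samhd1) to 0.57 (Xaf1, adjusted p = 0.0716), and none was below 0.

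From EGF/FGF to BMP, the interaction was called for 1 member, Rtp4, where 4.64% of all tested genes were called higher. Rtp4 stood 2.02-fold higher in BMP than in EGF/FGF in BL6 and 1.05-fold in ANS4 (interaction log2 0.95, SE 0.23, adjusted p = 0.0148). The call was lost without ANS4 replicate 2 of BMP and without replicate 1 of either line in EGF/FGF, and without BL6 replicate 2 of BMP the count was 2. Between EGF/FGF and BMP/FGF, 6 members had a larger difference in BL6, where 3.08% of all tested genes were called higher. This comparison was added after the levels were seen and shares libraries with those above. It also contains the difference that chose the members, so nothing is read from the count. Rtp4 led (log2 1.34, SE 0.20, adjusted p = 0.00113), followed by Ifi44 (1.09, adjusted p = 0.0295), Trim30a (0.94, adjusted p = 0.0429), Bst2 (0.92, adjusted p = 0.0056), Rsad2 (0.65, adjusted p = 0.00765) and Lgals9 (0.61, adjusted p = 0.048). Rtp4 and Bst2 passed under all 20 other settings, but the count fell to 2 without BL6 replicate 1 of EGF/FGF, to 3 with limma on the rlog values, and to 3 without ANS4 replicate 1 of EGF/FGF or any 1 of the 4 BMP/FGF libraries. For Samhd1 it was -0.11 (adjusted p = 0.619).

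The members did not follow 1 common profile equally closely. Each log2 level was centred on its own mean over the 12 libraries and set against the mean of the 10, and the root mean square difference was 0.154 for Rsad2, 0.185 for Lgals9, 0.265 for Bst2, 0.275 for Rtp4 and 0.295 for Xaf1. Ifi44 (0.354) and Phf11d (0.423) were farther away, and Ifi27l2a (0.731), Trim30a (0.832) and Samhd1 (1.15) were the farthest. Outside the members, the 5 tested genes closest to the mean profile by this measure were Gbp7 (0.209), Vwa1 (0.298), Pgf (0.302), Slfn8 (0.305) and Gbp4 (0.306). The order depended on the scale: on the rlog values Gbp7 ranked 1, Slfn8 2, Vwa1 4, Gbp4 7 and Pgf 9. Gbp7, an interferon-inducible GTPase, averaged 53.2 ± 6.61 CPM in EGF/FGF, 60.1 ± 5.01 in BMP and 223 ± 11.6 in BMP/FGF (SD, n = 4). Pgf, a growth factor of the VEGF family, averaged 7.98 ± 2.58, 6.19 ± 1.52 and 25.3 ± 2.76 CPM (SD, n = 4).

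**Figure D5:**
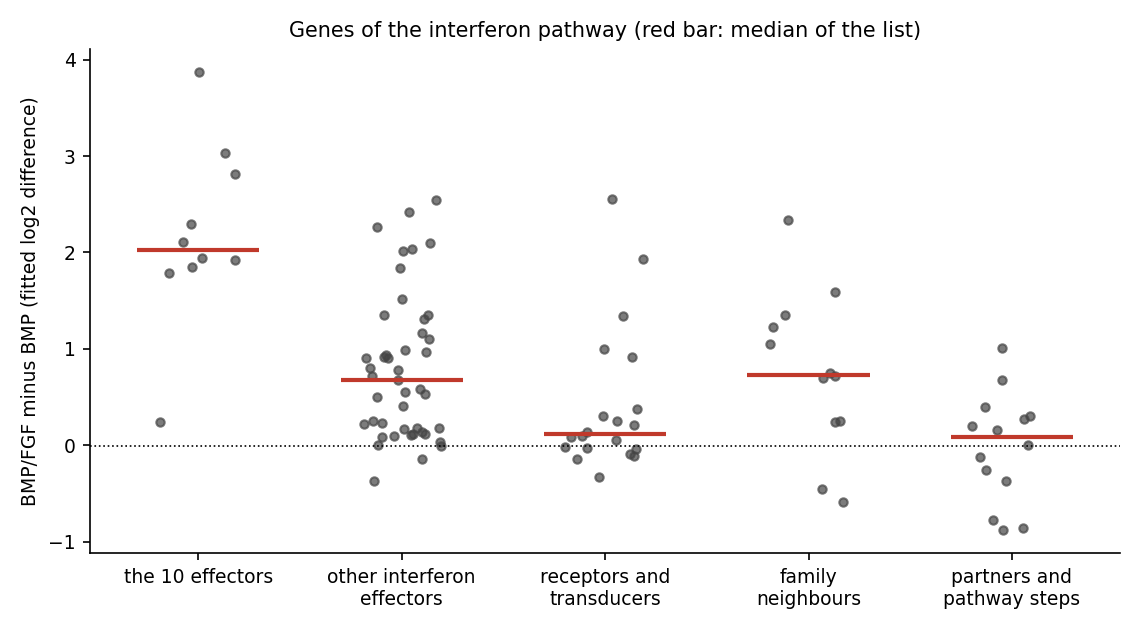
Fitted log2 difference of BMP/FGF from BMP for the tested genes of each list, 1 point a gene, with the median in red and the median of all tested genes dotted. The median is 2.03 for the 10 effectors, 0.67 for 45 other interferon effectors, 0.12 for 20 receptors and transducers, 0.73 for 12 family neighbours and 0.08 for 14 partners.

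Other genes of the pathway were compared in the step from BMP to BMP/FGF. Those named from each list are its highest and lowest in this step, so nothing is read from their adjusted p-values in it. No interferon gene was tested: of 20 ligands 1 was in the table, Ifnk, with at most 1 count in a library. Of 20 tested receptors and signal transducers, 9 rose, 1 fell and 10 did not pass (edgeR, FDR under 0.05). Beside them, 19.2% of all tested genes were called higher and 21.5% lower, and the median of the 20 was 0.12. The highest were Usp18, the protease that strips Isg15 and damps the receptor (log2 2.55, SE 0.20, adjusted p = 3.11e-08), and Irf7, the factor that amplifies interferon transcription (1.93, SE 0.20, adjusted p = 6.91e-07). At the other end were Socs3, an inhibitor of Jak signalling that fell by 0.33 on the log2 scale (adjusted p = 0.0435), and Irf8 at -0.14 (adjusted p = 0.522). Against EGF/FGF, 13 of the 20 rose in BMP and 5 fell, beside 40.2% of all tested genes called higher and 38.8% lower. Irf8 rose by 2.63 (adjusted p = 4.06e-09). In EGF/FGF 6 of the 20 were lower and 0 higher in BL6, where 3.70% of all tested genes were called lower. Of the genes named here Usp18 (log2 -1.82, adjusted p = 5.35e-06) and Irf7 (-1.53, adjusted p = 4.43e-05) were among the 6.

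Of 45 other tested interferon effectors, 28 rose, 0 fell and 17 did not pass from BMP to BMP/FGF, and the median was 0.67. In this step 19.2% of all tested genes were called higher and 21.5% lower. Slfn8, a Schlafen family gene, rose by 2.54 (SE 0.22, adjusted p = 1.36e-07) from 1.19 ± 0.37 to 6.78 ± 0.51 CPM (SD, n = 4). Apol9b rose by 2.42 (SE 0.43, adjusted p = 0.000229), whereas Daxx, a histone chaperone of nuclear bodies, was at -0.14 (adjusted p = 0.173) and Ifi30, a lysosomal thiol reductase, at -0.37 (adjusted p = 0.234). In BMP against EGF/FGF, 21 of the 45 rose and 12 fell, beside 40.2% of all tested genes called higher and 38.8% lower. The 46.7% called higher was near that background, and nothing is read from it. Between the lines, 9 of the 45 were lower and 0 higher in BL6 in EGF/FGF, where 3.70% of all tested genes were called lower, and 12 were lower and 0 higher in BMP, where 11.6% were. In BMP/FGF 0 of the 45 were called in either direction, beside 0.550% of all tested genes called higher and 0.169% lower, so nothing is read from that count.

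Family neighbours of the members numbered 12 tested of 19 in the table, and 8 rose, 1 fell and 3 did not pass from BMP to BMP/FGF (median 0.73). In this step 19.2% of all tested genes were called higher and 21.5% lower. Trim30d, beside Trim30a in the genome and at no more than 16 counts, rose by 2.34 (SE 0.45, adjusted p = 0.000513), and Trim34b rose by 1.59 (SE 0.26, adjusted p = 0.000124). Among the galectins, Lgals3 fell by 0.59 (adjusted p = 0.0207) and Lgals12 stood at -0.46 (adjusted p = 0.38). Of 14 tested binding partners and genes of shared pathway steps, 6 rose, 5 fell and 3 did not pass, with a median of 0.08. The shares of all tested genes called higher and lower were again 19.2% and 21.5%. Fdps, the farnesyl diphosphate synthase that viperin binds, rose by 1.01 (SE 0.11, adjusted p = 1.74e-06) and Cd44, a receptor bound by galectin-9, rose by 0.67 (SE 0.09, adjusted p = 9.37e-06). Tyms and Rrm2, which supply the dNTPs that Samhd1 degrades and which cycling cells need, fell by 0.86 (adjusted p = 5.51e-06) and 0.88 (adjusted p = 1.26e-08) from BMP to BMP/FGF. In BMP against EGF/FGF they fell by 1.8 (adjusted p = 5.1e-12) and 2.44 (adjusted p = 4.78e-16), and Samhd1 was lower in the same comparison. From BMP to BMP/FGF, where they fell, Samhd1 stood 1.18-fold higher. Rrm2b of the same list, named after its values were seen, rose in both comparisons. Its rise was 0.6 in BMP against EGF/FGF (adjusted p = 6.02e-07) and 0.2 from BMP to BMP/FGF (adjusted p = 0.0322).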

How the data were processed

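Bulk RNA-seq of 12 libraries (3 conditions, 2 lines, 2 replicates each) was analysed. The authors trimmed reads with Trim Galore 0.5.0, quantified transcripts with kallisto 0.44.0 on mm10, summed them per gene with Tximport and deposited estimated counts as whole numbers, together with a log2 table, the rlog transform of DESeq2 1.27.32. All columns were used.

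From the counts, edgeR 4.0.16 in R 4.3.3 kept genes by filterByExpr (minimum count 10 over the 6 groups of line and condition), scaled by TMM and fitted glmQLFit on all libraries. Condition contrasts had line as a covariate, and line contrasts and interactions used the 6 groups. Tests were two-sided with Benjamini-Hochberg adjustment over 13641 genes. Intervals are 95% (1.96 SE), log2 CPM used a prior count of 2, and exact permutation tests ran in scipy 1.17.1. The intervals cover these libraries only. The edgeR, DESeq2 and limma fits were tested on simulated counts, with limma on log2 CPM. This covered BMP against EGF/FGF, the interaction from BMP to BMP/FGF and the line difference in EGF/FGF. The other comparisons and steps were not tested in this way.

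The members and lists were chosen with earlier results of these data known. The genes named are the 10 members, the 5 most like them, and the 2 highest and 2 lowest of each list in BMP/FGF against BMP, with a few more chosen after their values were seen and said to be so. Replicate numbers did not pair the samples: log2 differences between replicates 1 and 2 correlated at -0.0668 to 0.0484 between conditions of a line. Alternatives were DESeq2 1.42.0 size factors and Wald test, library size only, no filter, limma 3.58.1 on the deposited log2 values, a replicate block, only the libraries compared, no line covariate, the lines one at a time, and single libraries left out in turn. A filter by condition alone, and the line comparisons in BMP, in BMP/FGF and from EGF/FGF to BMP/FGF, were added after the data were seen. Promoters are from RefSeq on GRCm38.p6, positions and lengths from GENCODE vM21 on GRCm38. The Python version was 3.11.15, with pandas 2.3.3, numpy 2.4.6 and matplotlib 3.10.9. Some list members enter the counts and sums but are given no value of their own here.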

Additional observations from a re-analysis of the deposited data

Results flagged for a closer look

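Among the 30 groups of 4 libraries formed by the 10 genes and 3 conditions, 1 held a library far from the other 3 by Dixon's ratio. ANS4 replicate 1 of BMP had Ifi27l2a at 1.28 CPM, with the other 3 BMP libraries at 0.62 to 0.67 CPM (ratio 0.927). Chance alone marks about 1 in 20 such groups.

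Differences between the lines in their response to the culture conditions were also marked, each by its interaction test (edgeR, FDR under 0.05). From BMP to BMP/FGF, the step that chose the members, the rise was larger in BL6 by 0.94 on the log2 scale for Ifi44, 0.56 for Bst2, 0.55 for Lgals9 and 0.63 for Trim30a. From EGF/FGF to BMP it was larger in BL6 by 0.95 for Rtp4. From EGF/FGF to BMP/FGF it was larger in BL6 by 1.09 for Ifi44, 0.92 for Bst2, 0.65 for Rsad2, 1.34 for Rtp4, 0.61 for Lgals9 and 0.94 for Trim30a. In each of the comparisons marked, the line means lay farther apart on the log2 scale in the condition with less of the gene. The interaction is the change in the line difference between the conditions, so this restates the marked calls and is not a further result.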

How the results depend on the processing

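No result changed sign while called. With the BL6 libraries alone, the count of members called higher in BMP against EGF/FGF was 5 in place of 3, and it was 3 to 4 with each library left out in turn. The interaction between line and the step from BMP to BMP/FGF was called for 4 members, for 0 with the DESeq2 Wald test, 0 with limma on the rlog values and 0 to 4 with a library left out. For EGF/FGF to BMP it was 1, with 2 at library size only and 0 to 2 with a library left out. For EGF/FGF to BMP/FGF it was 6, with 3 by limma on the rlog values and 2 to 6 with a library left out. The line difference in EGF/FGF was called for 6, and for 3 to 6 with a library left out. In BMP it was called for 7, for 1 with only the libraries compared and for 3 to 7 with a library left out. The median log2 difference of BMP/FGF from BMP was 2.03, with 1.83 on the rlog values, 1.87 in ANS4 alone, 2.27 in BL6 alone and 1.95 to 2.12 with a library left out. That from EGF/FGF was 2.55, with 2.24 on the rlog values, 2.50 without the line covariate, 2.09 in ANS4 alone, 2.96 in BL6 alone and 2.43 to 2.67 with a library left out. The cause was not tested, apart from the fewer libraries that some settings hold by construction. With the replicate number as a block, 6 members were called in BMP against EGF/FGF and 3, 1 and 4 in the interactions in the order above, and no count moved by over 1.5 times. For the line differences within a condition no paired analysis was possible because the lines share only a number. Scaling by library size only moved the split of all genes called, higher and lower in BL6, from 987 and 849 to 536 and 1389 in the interaction from BMP to BMP/FGF, from 633 and 525 to 881 and 363 from EGF/FGF to BMP, from 420 and 238 to 297 and 346 from EGF/FGF to BMP/FGF, and from 75 and 23 to 54 and 42 for the lines in BMP/FGF, with 3, 2, 4 and 0 members called. Depth limited Phf11d most, with as few as 6 counts in a library.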
